A study of Mus musculus with 6 samples.

Results

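Carboxypeptidase A1 (Cpa1), carboxypeptidase B1 (Cpb1) and amylase 1 (Amy1) are described here in the e15.5 mouse pancreas with and without Jarid2. The members were all probe sets annotated to exactly 1 of these 3 genes, which gave 3 probe sets, 1 for each gene, among 34958 probe sets and 18194 genes. RNA came from whole pancreases of C57BL/6 embryos at e15.5. The 3 Jarid2Δpanc samples were labelled as pancreas-specific Jarid2 knock-out, made by the study with Pdx1-Cre and Jarid2 flox/flox alleles, and the 3 Jarid2WT samples as wild-type. Pdx1-Cre acts in the pancreatic epithelium and the study describes recombination there as mosaic, with some tip and trunk cells not recombined. Whether the controls carried Cre is not given for the arrays. A further description field of the samples speaks of islets in glucose, whereas every other label names embryonic pancreas, which was followed here.

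Digestive carboxypeptidases are made by acinar cells as inactive zymogens, packed into granules and activated by trypsin in the gut. Cpa1 encodes an enzyme that removes mainly aromatic and aliphatic residues from the carboxyl end of peptides, and Cpb1 one that removes basic residues. Alpha-amylase cleaves starch. Cpa1 is an early gene of the exocrine lineage, first made in the multipotent cells at the tips of the branching epithelium and then kept in acinar cells, whereas many other digestive enzymes accumulate as acinar cells mature. In the mouse, the amylase of the pancreas comes from the Amy2 genes, and Amy1 is known as the amylase gene of the salivary gland and liver.

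The promoters of both carboxypeptidase genes are shown, since they are of 1 enzyme family and the groups below overlapped for Cpa1 and not for Cpb1, as 250 bases before the annotated start and 30 from it on (RefSeq, GRCm38.p6, read along the gene's strand). Cpa1 lies at chr6:30639218-30645361 and Cpb1 at chr3:20249479-20275733. Capitals mark the E-box CANNTG, to which basic helix-loop-helix factors such as Ptf1a bind, and TGGGAA, the core motif of the Ptf1a partners Rbpj and Rbpjl, both searched on both strands.
Cpa1, chr6:30638968-30639247, plus strand: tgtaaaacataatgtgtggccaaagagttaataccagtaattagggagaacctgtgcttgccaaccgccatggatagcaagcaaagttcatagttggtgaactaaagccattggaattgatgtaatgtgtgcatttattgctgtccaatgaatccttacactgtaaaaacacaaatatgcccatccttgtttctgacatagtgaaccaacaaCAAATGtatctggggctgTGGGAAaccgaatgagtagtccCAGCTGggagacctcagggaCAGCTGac
Cpb1, chr3:20275704-20275983, minus strand: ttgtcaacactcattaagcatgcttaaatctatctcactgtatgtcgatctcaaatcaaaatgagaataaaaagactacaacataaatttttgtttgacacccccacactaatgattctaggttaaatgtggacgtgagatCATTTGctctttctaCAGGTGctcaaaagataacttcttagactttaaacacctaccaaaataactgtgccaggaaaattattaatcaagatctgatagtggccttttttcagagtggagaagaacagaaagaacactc
The Cpa1 window held 3 E-boxes, which began at positions -38, 3 and 23 from the start, and 1 TGGGAA at -20 between the first and second of them. The Cpb1 window held 2 E-boxes, at -109 and -94, and no TGGGAA. Amy1, for which the groups overlapped too, had 2 windows, not shown. Neither held an E-box, and 1 held TGGGAA on the opposite strand, at -131. No match overlapped another. E-boxes were present in 70.1% of the 32851 promoter windows of the same length, TGGGAA in 23.8% and both in 17.1%. A match describes the letters only, since no binding was measured in these samples.

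Of the 3 genes, Cpb1 had lower signals in every Jarid2Δpanc pancreas than in any Jarid2WT pancreas, while the groups overlapped for Cpa1 and for Amy1. Over all 18194 genes, 5.66% had every Jarid2Δpanc sample below every Jarid2WT sample, as Cpb1 did, and 5.71% had every one above. None of the 3 passed an adjusted p of 0.05, and neither did any other gene in limma (0.0% lower, 0.0% higher), while an unadjusted p under 0.05 was reached by 4.44% of genes on the lower side and 4.36% on the higher side. All 3 members had a negative log2 fold change, as did 43.3% of genes. All these shares are over 18194 genes, including those at 16 or under on all arrays, whose log2 fold change is 0. Without those, 16600 genes remain. The values are linear array intensities, scaled by the authors to a trimmed mean of 150 on each array. They were set to at least 16, log2 was taken, and Jarid2Δpanc was compared with Jarid2WT with limma over all 18194 genes. A probe set's signal depends on its probes as well as on the transcript, so signals are compared between samples and not between genes. In bulk RNA, fewer acinar cells and less RNA per acinar cell cannot be told apart.

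Cpb1 had signals of 917, 1964 and 865 in Jarid2WT replicates 1, 2 and 3 and 531, 332 and 290 in Jarid2Δpanc replicates 1, 2 and 3. The groups did not overlap, and Jarid2WT replicate 2 stood above the other controls by more than the gap between groups. The means were 1249 ± 620 (SD, n = 3) and 384 ± 129 (SD, n = 3). The log2 fold change was -1.64 (standard error, SE, 0.43, limma unadjusted p = 0.0147 and adjusted p = 0.412), a fold of 0.320 with a 95% interval of 0.145 to 0.706. It was the 18th lowest log2 fold change of 18194 genes. Without Jarid2WT replicate 2 it was -1.26.

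Cpa1 had signals of 13777, 14039 and 13350 in Jarid2WT and 11960, 15123 and 12283 in Jarid2Δpanc. The 3 controls lay close together, and the Jarid2Δpanc samples lay on both sides of them, with replicate 2 above and replicates 1 and 3 below all controls. The means were 13722 ± 348 (SD, n = 3) and 13122 ± 1740 (SD, n = 3). The log2 fold change was -0.07 (SE 0.10, limma adjusted p = 0.909), and its 95% interval of -0.34 to 0.20 leaves room for a decrease to 0.789 or an increase to 1.15 of the control level. Without Jarid2Δpanc replicate 2 it was -0.18 (SE 0.03, limma unadjusted p = 0.0064 and adjusted p = 0.370), so the overlap of the groups rests on that sample.

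Amy1, at chr3:113555952-113577750, had signals of 123, 100 and 73 in Jarid2WT and 92, 88 and 85 in Jarid2Δpanc. The Jarid2Δpanc samples all fell within the range of the controls. The study, in contrast, names Amy1 among the downregulated exocrine genes. Its methods name RMA, whereas the processing notes of the values used here name MAS5, and the probe set it read for Amy1 is not stated in its text. The means were 98.7 ± 25.0 (SD, n = 3) and 88.3 ± 3.51 (SD, n = 3), a log2 fold change of -0.13 (SE 0.21, limma adjusted p = 0.935) with a 95% interval of -0.67 to 0.42. Xist, a transcript of female cells, had signals of 24 and 12 in Jarid2WT replicates 1 and 2, which had the highest Amy1 signals, and 4197 to 4905 in the other samples. High Xist was thus read in all Jarid2Δpanc samples and, among the controls, only in Jarid2WT replicate 3. Genotype and sex therefore largely go together in these samples, for every gene and list described here. The fit had no covariate for sex, and the part of sex in the differences was not tested. With Jarid2WT replicate 3, the control with high Xist, as the only control, Amy1 had 0.27 and Cpb1 -1.22. That control also stood apart in skeletal muscle markers, with a summed signal of 7848 against 155 to 207 in the other samples, so these values do not separate sex from that difference.

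**Figure D1:**
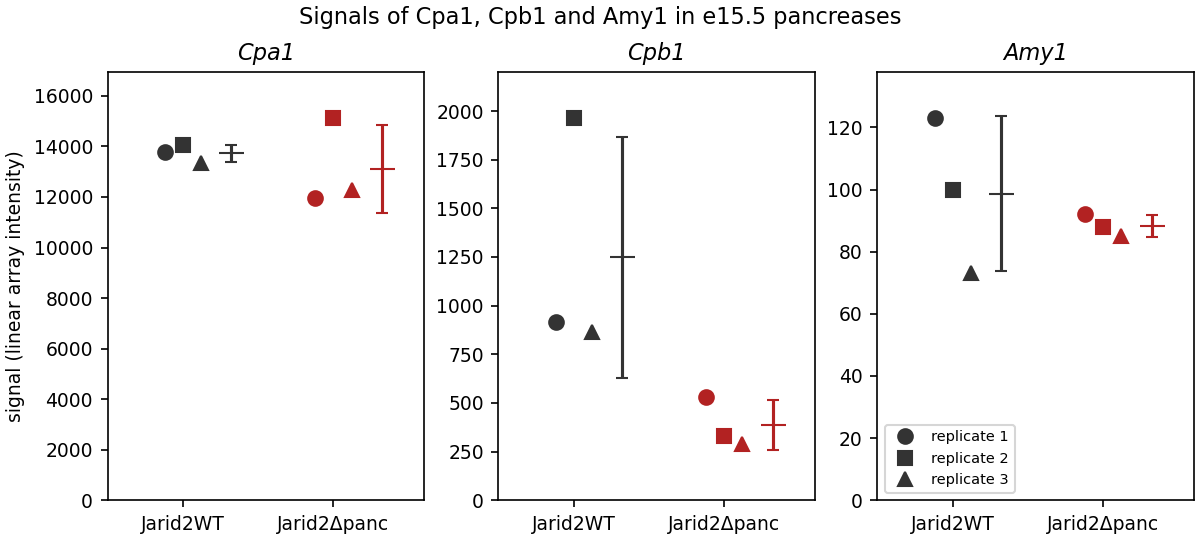
Signal of Cpa1, Cpb1 and Amy1 (vertical axes, linear array intensity from 0) in the 3 Jarid2WT (dark) and 3 Jarid2Δpanc (red) samples, with the mean and SD of each group as a bar to the right. For Cpb1 the mutants lie at 290 to 531 and the controls at 865 to 1964, and for Cpa1 and Amy1 the groups overlap.

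To compare the early enzyme Cpa1 with Cpb1, and each of them with Amy1, the difference between members was computed within each sample. Cpa1 was also read at a far brighter signal than Cpb1, with means of 13722 and 1249 in Jarid2WT. For this pair early onset and bright signal cannot be told apart, and the part of neither was tested. Relative to its mean in Jarid2WT, the log2 ratio of Cpb1 to Cpa1 was -0.93, -1.94 and -1.84 in the Jarid2Δpanc samples and -0.34, 0.73 and -0.38 in the controls. The groups did not overlap, and the log2 fold change of Cpb1 minus that of Cpa1 was -1.57 (exact two-sided permutation test, p = 0.10, and p = 0.15 adjusted over 3 pairs). With 3 samples against 3, 0.10 is the smallest p that this test can give. For Cpb1 minus Amy1 it was -1.52 (exact two-sided permutation test, p = 0.10, and p = 0.15 adjusted over 3 pairs), with -1.06, -1.67 and -1.82 in the Jarid2Δpanc samples. Amy1 and Cpa1 differed from each other by -0.06 (exact two-sided permutation test, p = 0.90), with single Jarid2Δpanc samples at 0.13, -0.27 and -0.02 and controls at 0.34, 0.02 and -0.36.

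The 5 genes whose log2 profiles over the 6 arrays were nearest to that of Cpb1 were Pdia2, Rnase1, Cela2a, Cela3b and Sycn, with root mean square differences of 0.21 to 0.41. Each is known from pancreatic acinar cells. Pdia2 is the protein disulfide isomerase of the pancreas, Rnase1 its secreted ribonuclease, Cela2a and Cela3b encode elastases, and syncollin (Sycn) is a zymogen granule protein. Pdia2 had signals of 1300, 2115 and 1022 in Jarid2WT and 673, 469 and 492 in Jarid2Δpanc, with the highest control again in replicate 2. Its log2 fold change was -1.39 (SE 0.33, limma adjusted p = 0.367). Sycn had 335, 596 and 350 in Jarid2WT and 197, 186 and 206 in Jarid2Δpanc. In all 5 genes replicate 2 was the highest control and the groups did not overlap, which follows largely from choosing them by likeness to Cpb1. No gene lay within 0.1 of Cpb1.

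The profile nearest to that of Cpa1 was of another kind. Of its 5 nearest genes 4 encode ribosomal proteins, Rpl41, Rpl19, Rps29 and Rpl4, and the fifth, Dkc1, encodes dyskerin, which modifies ribosomal RNA. Their root mean square differences were 0.01 to 0.03, and 847 of 9959 genes lay within 0.1 of Cpa1. Rpl41 had signals of 14996, 15081 and 14449 in Jarid2WT and 12894, 16244 and 13391 in Jarid2Δpanc, with replicate 2 above and replicates 1 and 3 below all controls, as for Cpa1. It was chosen by this likeness. Among the 43 genes with a mean signal over 10000, Jarid2Δpanc replicate 2 was the highest mutant in 43, against 36.9% of the 9960 genes with a mean signal of at least 64. The Cpa1 probe set ranked 44 to 54 among the 45101 probe sets of an array and read 55.1% to 61.2% of its highest signal. The part of brightness in the Cpa1 difference was not tested. After quantile normalization between arrays the Cpa1 log2 fold change was 0.0067.

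Amy1 was dim, and 15 of 9959 genes lay within 0.1 of its profile. The nearest were Mif4gd, Pcid2, B4galt5, C330018D20Rik and Ccdc167, with root mean square differences of 0.06 to 0.09. All 5 had their highest signal in Jarid2WT replicate 1 and their lowest in Jarid2WT replicate 3, as Amy1 did, and none is a digestive enzyme. The shared order follows largely from choosing them by likeness to Amy1.

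**Figure D2:**
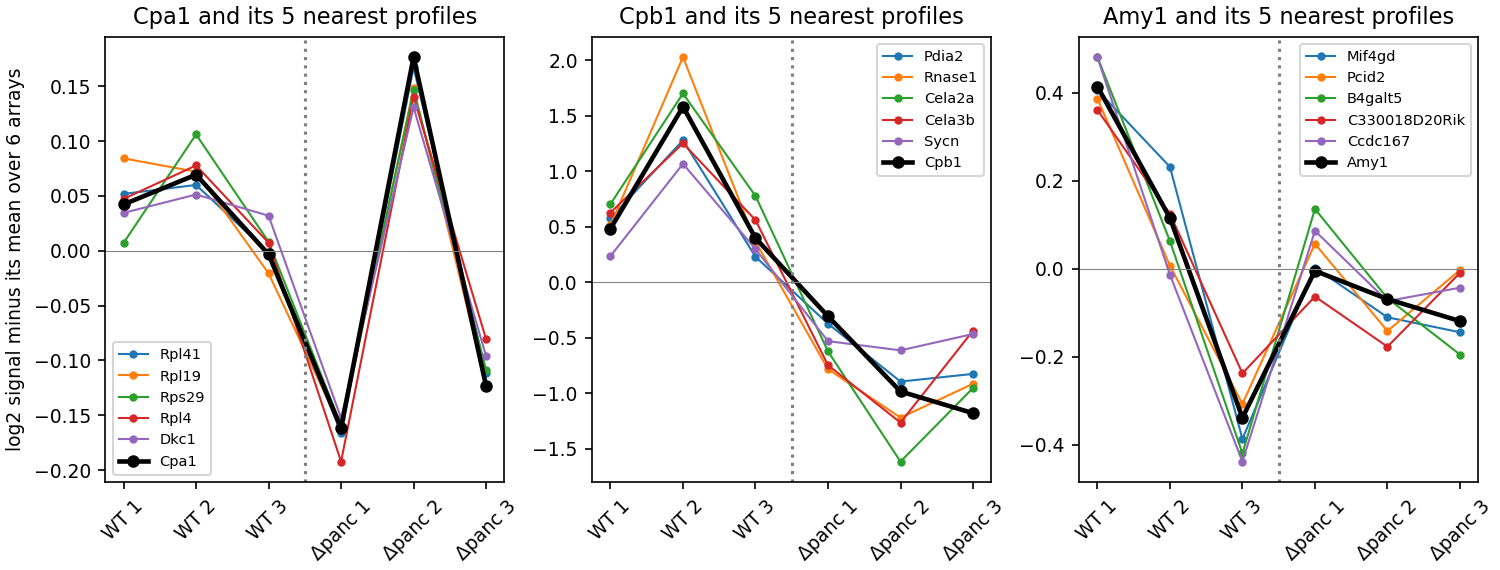
Log2 signal minus its mean over the 6 arrays (vertical axes) for each member (black) and its 5 nearest genes (colours) in each sample, with lines drawn only to guide the eye and a dotted line between the groups. Cpb1 runs with acinar genes that peak in Jarid2WT replicate 2, and Cpa1 with genes that peak in Jarid2Δpanc replicate 2. The genes were chosen by this likeness.

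The pancreatic amylases themselves could not be assigned to single genes. One probe set carries the symbols of 5 Amy2a genes, which lie beside Amy1 on chromosome 3, and was left out by the rule. It gave the highest signal of all probe sets on each of the 6 arrays, with 24682, 25093 and 24231 in Jarid2WT and 19539, 24948 and 21104 in Jarid2Δpanc. The groups overlapped through Jarid2Δpanc replicate 2, and the log2 difference of -0.18 was not tested. Another probe set, shared by Amy1 and its neighbour Rnpc3, had 147, 208 and 164 in Jarid2WT and 193, 175 and 285 in Jarid2Δpanc. Its log2 difference of 0.31 is opposite in sign to that of the Amy1 probe set, and here too the groups overlapped.

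Other enzymes of the carboxypeptidase family did not share the difference of Cpb1 in size. Of 19 genes outside the zymogen granule, 16 were measured, with a median log2 fold change of 0.13 beside 0.00 over all genes. Of these, 3 lay below all controls, Cpe, Cpn1 and Agtpbp1, and 1 above, Agbl5, beside 5.66% and 5.71% of all genes. Cpe, which trims prohormones in endocrine granules, averaged 3778 ± 90.7 (SD, n = 3) in Jarid2WT and 3213 ± 119 (SD, n = 3) in Jarid2Δpanc, with -0.23 on the log2 scale (SE 0.04, limma adjusted p = 0.250). Cpn1, the catalytic subunit of a plasma carboxypeptidase, and Agtpbp1, which shortens glutamate chains of tubulin, had -0.31 (SE 0.11) and -0.46 (SE 0.09). Cpa3, the carboxypeptidase of mast cells, had 0.33 (SE 0.45). Cpa4 and Cpa5, which lie next to Cpa1 on chromosome 6, were dim, with mean signals of 26.0 and 35.0 in Jarid2WT and log2 fold changes of 0.35 and -0.61.

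Most of the enzymes that share the zymogen granule with the members had negative log2 fold changes. Of 21 other acinar enzymes 15 were measured, and 9 of these lay below all controls, beside 5.66% of all genes. None lay above, 14 had a negative log2 fold change, beside 43.3% of all genes, and the median was -0.47. The same 9 had an unadjusted p under 0.05, beside 4.44% of all genes on the lower side, and 0 had an adjusted p under 0.05 from limma. This list was written with earlier results of these data known. Cela2a had the most negative value, -2.12 (SE 0.40), and the bile salt-activated lipase Cel had -0.70 (SE 0.07). Prss2, a trypsinogen, whose active form cleaves procarboxypeptidases, had -1.04 (SE 0.15). Chymotrypsinogen Ctrb1 and the lipase-related Pnliprp1, with the highest signals of the list, had -0.07 (SE 0.12) and -0.14 (SE 0.11), close to the value of Cpa1. That value is not particular to acinar enzymes. All 43 genes with a mean signal over 10000, of any kind, had a median of -0.07 and a range of -0.47 to 0.07. Colipase (Clps), also with a mean signal over 10000, had -0.47 (SE 0.07). The 3 listed enzymes with a mean signal over 10000 had a median of -0.14, and the other 12 a median of -0.59. This split was chosen after the values were seen. The 12 include dim genes such as Pla2g1b and Ctrl, with mean signals of 17.5 and 24.8.

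**Figure D3:**
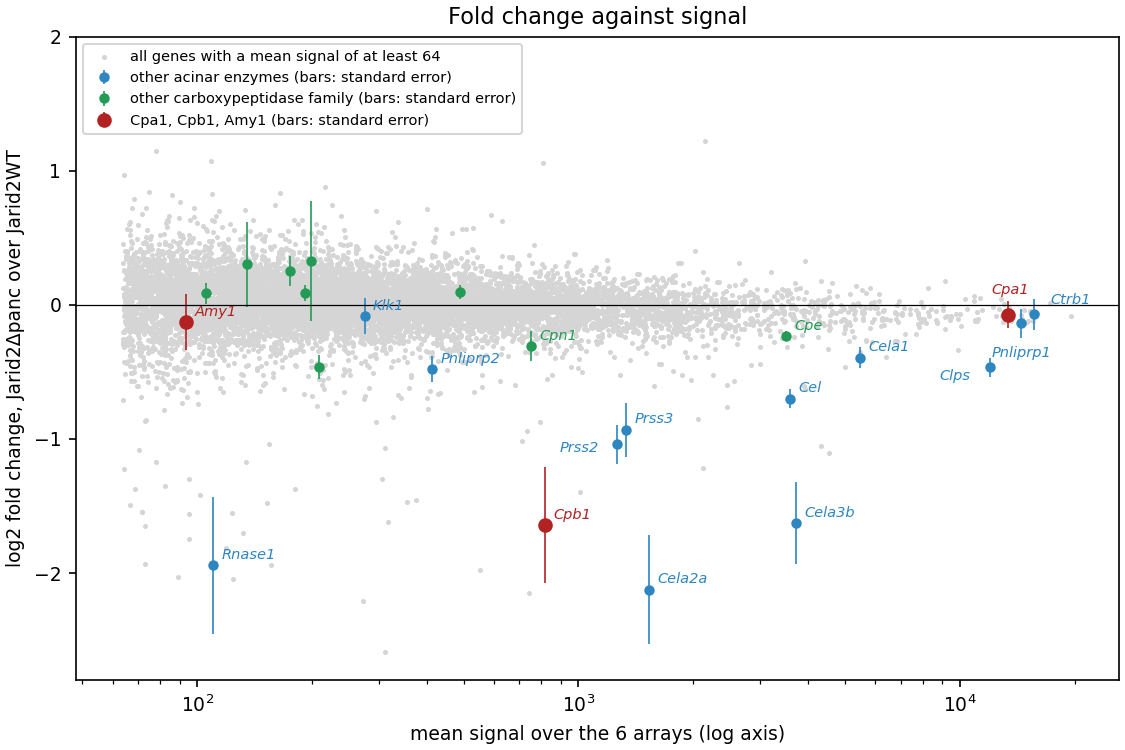
Log2 fold change of Jarid2Δpanc over Jarid2WT (vertical axis) against the mean signal over the 6 arrays (horizontal log axis) for genes with a mean signal of at least 64, with the members in red, other acinar enzymes in blue, the rest of the carboxypeptidase family in green, all other genes in grey and bars for the SE. A pair of sex-linked genes lies outside the range drawn. Cpb1 lies at -1.64 among acinar enzymes of intermediate signal, and Cpa1 at -0.07 beside the bright Ctrb1 and Pnliprp1.

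Among proteases and inhibitors that act on zymogens, 8 of 13 were measured, with 5 below all controls (5.66% of all genes), 0 above and a median log2 fold change of -0.58. The measured Prss2, Prss3 and Ctrc are in the list of other acinar enzymes too, and Prss2 and Prss3 are among those below all controls in both counts. The trypsin inhibitor Spink1 and the serpin Serpini2 had -1.22 (SE 0.10) and -0.76 (SE 0.09). Latexin (Lxn), an inhibitor of carboxypeptidases, had signals of 782, 776 and 786 in Jarid2WT and 753, 693 and 720 in Jarid2Δpanc, a log2 fold change of -0.11 (SE 0.03). Of 9 zymogen granule genes 3 lay below all controls (5.66% of all genes), Sycn, Rab3d and Reg1, with a median over the list of -0.40. The granule GTPase gene Rab3d had -0.52 (SE 0.12) and Reg1 -0.40 (SE 0.17). The brush border glycosidases, which cleave sugars at the surface of the intestine, were dim, with summed signals over 3 measured genes of 22 to 57.

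The acinar transcription factors had smaller differences than Cpb1. Of 11, 10 were measured, with a median log2 fold change of -0.09, 1 below all controls (5.66% of all genes) and 0 above. That gene was Rbpjl, the acinar subunit of the Ptf1 complex, with signals of 489 ± 30.9 (SD, n = 3) in Jarid2WT and 368 ± 39.9 (SD, n = 3) in Jarid2Δpanc and a log2 fold change of -0.42 (SE 0.10, limma adjusted p = 0.379). Ptf1a and the secretory cell regulator Bhlha15 had -0.30 (SE 0.19) and -0.27 (SE 0.13), and Xbp1 had -0.11 (SE 0.07). Factors listed for the early tip progenitors, in which Cpa1 is first made, showed a median of 0.02 over 9 measured genes of 10, with 0 below and 0 above all controls. Of these, Nr5a2 had 0.01 (SE 0.11) and Sox9 had 0.19 (SE 0.11), and Ptf1a, given above, is in this list too. The list is not specific to tip cells at e15.5, where the study takes Sox9 and Nkx6-1, both listed, as markers of bipotent cells of the duct and endocrine lineages.

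Markers of other cells were examined beside the members. The 6 mesenchyme markers had summed signals of 26546 to 31510 in Jarid2WT and 28915 to 33483 in Jarid2Δpanc, and the groups overlapped for all 6. The 6 islet markers had 16028 to 18926 and 8939 to 10239, and 5 of 6 lay below all controls (5.66% of all genes), Chga being the exception. Hepatocyte markers, of interest because liver also transcribes Amy1, were highest in Jarid2WT replicate 2 and Jarid2Δpanc replicate 3, with summed signals over 6 measured genes of 2953 and 2826 against 627 to 964 in the other samples. Amy1 was at 100 and 85 in these 2 samples, and Cpb1 had its highest signal, 1964, in the former and its lowest, 290, in the latter. The 6 salivary markers had 83 to 144 in Jarid2WT and 80 to 148 in Jarid2Δpanc, and 2 of them were at or under the floor on all arrays. Mast cell markers summed to 552 to 729 and 619 to 1017, duct markers over 4 measured genes to 1350 to 1419 and 1351 to 1542, and erythroid markers over 4 measured genes to 2508 to 7502 and 4079 to 4876. The part of these cells and of skeletal muscle, given above, in the differences was not tested. The transcript of Jarid2 had signals of 335, 301 and 415 in Jarid2WT and 392, 398 and 355 in Jarid2Δpanc. Where these probes lie relative to the deleted exon is not given here, and probes outside it check nothing about the deletion. The study measured the floxed exon by qRT-PCR and reported it reduced at e15.5 compared with controls.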

How the data were processed

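RNA of 3 Jarid2WT and 3 Jarid2Δpanc e15.5 pancreases was amplified through 2 cycles of cDNA synthesis from 50 ng and hybridized to Affymetrix mouse genome arrays. The authors deposited an intensity for each of 45101 probe sets, for which the submitters' processing notes name MAS5 (version not given). They are linear whole numbers with a mean of 150 per array after trimming 2% at each end. The methods of the study name RMA and LIMMA, but RMA starts from scanner files, which were not used here. Values under 16, 26.5% to 29.0% of an array, were set to 16 and log2 was taken. The annotation gave 1 gene symbol to 34958 probe sets, several to 932, which were left out, and none to 9211. Each of 18194 genes was read from its brightest probe set on average. The fit used lmFit and eBayes of limma 3.58.1 (R 4.3.3) without a covariate and Benjamini-Hochberg adjustment, which was tested on simulated data. Differences between members were tested by exact permutation over samples (scipy 1.17.1). The labels give no batches or dates, and p-values set the group differences against the variation among these samples only. The number of arrays limits the precision.

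The members and lists were chosen with earlier results of these data known. Named genes were the members, Jarid2, the 2 brightest of each list and the 2 with the lowest p, and the 5 nearest profiles of each member among genes with a mean signal of at least 64. Other genes are named for their role or position, or as the few behind a count, after their values were seen. Promoters came from RefSeq, GRCm38.p6, where all 3 members matched. Alternatives covered each sample left out, the replicate number as a block, the floor, normalization, filters, the choice of probe set and the variance model. A single control and the brightest genes left out were alternatives added after seeing the data. Same-numbered samples of the groups did not deviate together (correlations of -0.07 to -0.03 over 9960 genes), so the numbers were not taken as pairs.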

Additional observations from a re-analysis of the deposited data

How the results depend on the processing

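Cpb1 kept a negative log2 fold change under all 20 alternatives (-1.90 to -1.22, adjusted p = 0.219 to 0.612 from limma), and -1.90 to -1.26 with any 1 sample left out. Many of the 20 could not move it from -1.64. These were the other floors, the filters, the choice of probe set, the variance models and the block. The difference of Cpb1 from Cpa1 (-1.89 to -1.19) and from Amy1 (-1.86 to -1.16) kept its sign under all 12 alternatives computed for it, some of which left it at its value, and the test could not pass 0.05 under any of them. Cpa1 was -0.18 to -0.01 with any 1 sample left out and 0.0067 under quantile normalization, the alternative that turned its sign. Amy1 was -0.33 to 0.047 with any 1 sample left out, the latter without Jarid2WT replicate 1, and 0.27 with Jarid2WT replicate 3 as the only control. Amy1 minus Cpa1 was -0.24 to 0.12 with any 1 sample left out, positive without Jarid2WT replicate 1 and without Jarid2Δpanc replicate 2, and 0.31 with the single control. The causes were not tested. With the replicate block, Cpa1, Cpb1 and Amy1 had -0.07, -1.64 and -0.13 (adjusted p = 0.841, 0.565 and 0.870 from limma), and the block changed no call. No member probe set passed under any of 18 alternatives.

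Over all genes limma called 0 lower and 0 higher. It called 3 lower and 1 higher after quantile normalization, 3 lower with genes under a mean of 64 left out, 244 lower and 13 higher with the single control, which is also the sample with the high skeletal muscle markers (7848 against 155 to 207), and 0 to 8 lower and 0 to 4 higher with any 1 sample left out (8 lower without Jarid2WT replicate 2). The single control is assumed to vary like the mutants. Signals near 16, such as those of the salivary markers and Cpa4, carry no order.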
